A study of Homo sapiens with 60 samples.

Results

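At their low doses, 6 herbal water extracts were compared with the vehicle in HepG2, an established line from a human hepatocellular carcinoma, to describe what the low doses had in common. The comparison used the 18 libraries whose titles carry the low dose, 3 for each extract, and the 3 vehicle libraries, out of 60 libraries in the series. The mean of each extract was given the same weight, so the value reported for a gene is the average of 6 extract means less the vehicle mean, called the common shift below, which does not require that every extract moved. The series profiled herbs of a traditional decoction, each at 3 doses, and used wortmannin, an inhibitor of phosphoinositide 3-kinases, at 10 µM as its positive control.

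Cells were exposed for 24 h in every group. The low dose was 20 µg/mL for Aucklandiae Radix, Longan Arillus, Schisandrae Fructus, Zizyphi Semen and Liriopis seu Ophiopogonis Tuber, and 18 µg/mL for Polygalae Radix. The medium and high doses were 90 and 450 µg/mL for Polygalae Radix and 100 and 500 µg/mL for every other extract. Vehicle cells received DMSO, at 0.1% in the sample labels and 2% in the text on the design, so its level is uncertain, and the labels do not state how much DMSO the extract wells held. The titles of all 60 libraries carry the word BatchA. Sample codes fall into sets named A1 (the vehicle), 1 (wortmannin), 2 (Liriopis and Schisandrae), 3 (Longan and Zizyphi) and 4 (Polygalae and Aucklandiae), whose meaning the labels do not give. A difference between the vehicle and all other libraries therefore cannot be told apart from a difference between code sets. Libraries with little RNA had been left out by the submitters. Nothing in the labels says that replicates were separate cultures, so the p-values speak only of the spread among these libraries, which may be technical.

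Liver cells adjust transcription to oxygen, nutrients and foreign compounds through a few well studied programmes. Under low oxygen, hypoxia-inducible factors bind DNA at sites with the core ACGTG, or GCGTG, and switch on genes of glucose uptake, glycolysis and mitochondrial turnover. NRF2, a factor released by reactive compounds, switches on reductases and conjugating enzymes, while the mitochondrial genome codes for core subunits of the respiratory chain that work beside subunits made in the nucleus.

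Total expected counts per library lay between 21.6 and 27.0 M in the vehicle and between 20.2 and 36.4 M at the low doses. All 10 hepatocyte markers were above 1 CPM (CPM, counts relative to library size after TMM scaling, is the scale of all levels below) in the vehicle, and their summed level ran from 20717 to 21939 CPM in the vehicle libraries and from 19195 to 25366 CPM in the low-dose libraries. Of 10 markers each, PTPRC, CD3E and MS4A1 (immune cells), KDR, EMCN and ERG (endothelium), KRT5, KRT6A and PKP1 (squamous epithelium) and STMN2 and NEFL (neurons) were at 0 in all 21 libraries. No marker of fibroblasts and stellate cells was at 0 in all of them. Above 1 CPM in the vehicle were 3 immune, 2 fibroblast or stellate, 2 endothelial, 1 squamous and 2 neuron markers. The summed immune markers were at 981 to 1023 CPM in the vehicle and 1001 to 1128 CPM at the low doses, those of fibroblasts and stellate cells at 63.7 to 71.2 and 61.9 to 78.7 CPM, of endothelium at 6.87 to 7.67 and 6.38 to 8.33 CPM, of squamous epithelium at 14.3 to 17.2 and 13.5 to 17.9 CPM and of neurons at 199.9 to 218 and 187 to 232 CPM. Vehicle replicate 1 stood apart from the other vehicle libraries. Its mitochondrially encoded mRNAs took 16.1% of the counts, against 13.0% and 13.1%, and the slope of its log2 deviations on GC content was -0.11 per 10 percentage points, against 0.011 and 0.017. Results are therefore given with and without it.

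Of 16517 genes tested, 589 (3.57%) were higher and 552 (3.34%) were lower over the low doses than in the vehicle, 6.91% in all, by edgeR's quasi-likelihood test at a Benjamini-Hochberg adjusted p below 0.05. The changes were small. The median log2 fold change was 0.22 among the higher genes and -0.19 among the lower ones, 14 genes in each direction differed at least 2-fold, and the median over all tested genes was 0.0019. In 150 genes (0.908%) all 18 low-dose libraries lay above all 3 vehicle libraries, in 174 (1.05%) all lay below, and 129 (0.781%) and 151 (0.914%) genes also passed the test. The count depended on single vehicle libraries. Without vehicle replicate 1 the test called 65 higher and 79 lower genes, of which 139 were among the 1141 genes called with all libraries, and 1140 of these 1141 genes kept their direction. Both fits share the 18 low-dose libraries and vehicle replicates 2 and 3, so the direction of called genes was largely fixed beforehand. Without vehicle replicate 2 the counts were 355 and 317, and without replicate 3 they were 439 and 388.

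The 12 largest rises and the 12 largest falls were taken among called protein-coding genes that reached a mean of 5 CPM in the vehicle or over the low doses and whose 18 low-dose libraries all lay beyond the vehicle, so the gap between their groups comes from the choice and supports nothing. The rises included IGFBP1 and PFKFB4. IGFBP1 (ENSG00000146678, chromosome 7, 45888357 to 45893668), a liver-made binding protein of insulin-like growth factors, was at 22.1, 22.4 and 27.3 CPM in the vehicle and from 36 to 78.2 CPM (median 43.3) at the low doses. No low-dose library reached down to the vehicle, and the gene rose by 1.00 ± 0.15 on the log2 scale (SE; edgeR adjusted p = 4.70e-05; without vehicle replicate 1, 0.94 at adjusted p = 0.00676). PFKFB4 (ENSG00000114268, chromosome 3, 48517684 to 48562015) sets the level of fructose 2,6-bisphosphate, an activator of glycolysis, and was at 14.2, 13.8 and 16.8 CPM in the vehicle and from 18.2 to 33.6 CPM (median 23.3) at the low doses. It rose in all 18 libraries, by 0.69 ± 0.11 (edgeR adjusted p = 7.74e-05; without vehicle replicate 1, 0.65 at adjusted p = 0.00882), and it overlaps UCN2 on the same strand, so that shared reads could belong to either. Its relative PFKFB3 was at 2.6, 3.95 and 3.88 CPM against 4.44 to 6.68 CPM (median 5.69). The mean of PFKFB3 reached 5 CPM only at the low doses, so its values and its place among the 12 rises are a description only.

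Of the other named rises, PTPRH, a receptor tyrosine phosphatase, was at 8.19, 8.9 and 9.64 CPM in the vehicle and from 11 to 13.4 CPM (median 12.5) at the low doses. NDRG1, a stress-responsive gene induced by hypoxia, was at 36.2, 33 and 41.3 CPM against 45 to 69.8 CPM (median 49). Both sets of 18 libraries lay wholly above the vehicle. By edgeR, PTPRH rose by 0.47 ± 0.081 (adjusted p = 0.000278) and NDRG1 by 0.46 ± 0.082 (adjusted p = 0.000361) on the log2 scale, and both passed without vehicle replicate 1, PTPRH at 0.41 (adjusted p = 0.0247) and NDRG1 at 0.45 (adjusted p = 0.0168). CHST15, a sulfotransferase of chondroitin sulfate, rose by 0.42 ± 0.087 (adjusted p = 0.00198), and ANKZF1, which acts in the clearance of stalled ribosomes, by 0.37 ± 0.069 (adjusted p = 0.000729). KDM4B, a histone demethylase, rose by 0.36 ± 0.075 (adjusted p = 0.00204), CYB561D2, of the cytochrome b561 family, by 0.45 ± 0.084 (adjusted p = 0.000729), CCDC183 by 0.41 ± 0.09 (adjusted p = 0.00393) and the small GTPase gene RAB43 by 0.62 ± 0.16 (adjusted p = 0.0144). ANKZF1 (with GLB1L), CYB561D2 (with NPRL2 and TMEM115), CCDC183 (with CCDC183-AS1) and RAB43 (with ISY1-RAB43) share their place with other genes and are uncertain. In all, 8 of the 12 largest rises passed the test without vehicle replicate 1, 12 without replicate 2 and 12 without replicate 3. The test was lost without vehicle replicate 1 for CYB561D2 (0.35), KDM4B (0.31) and RAB43 (0.54), with the log2 fold change there in brackets. PFKFB3 (0.53), which is counted among the 12, lost it there too. Its outcome is a description only, since it reached 5 CPM only at the low doses.

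**Figure D1:**
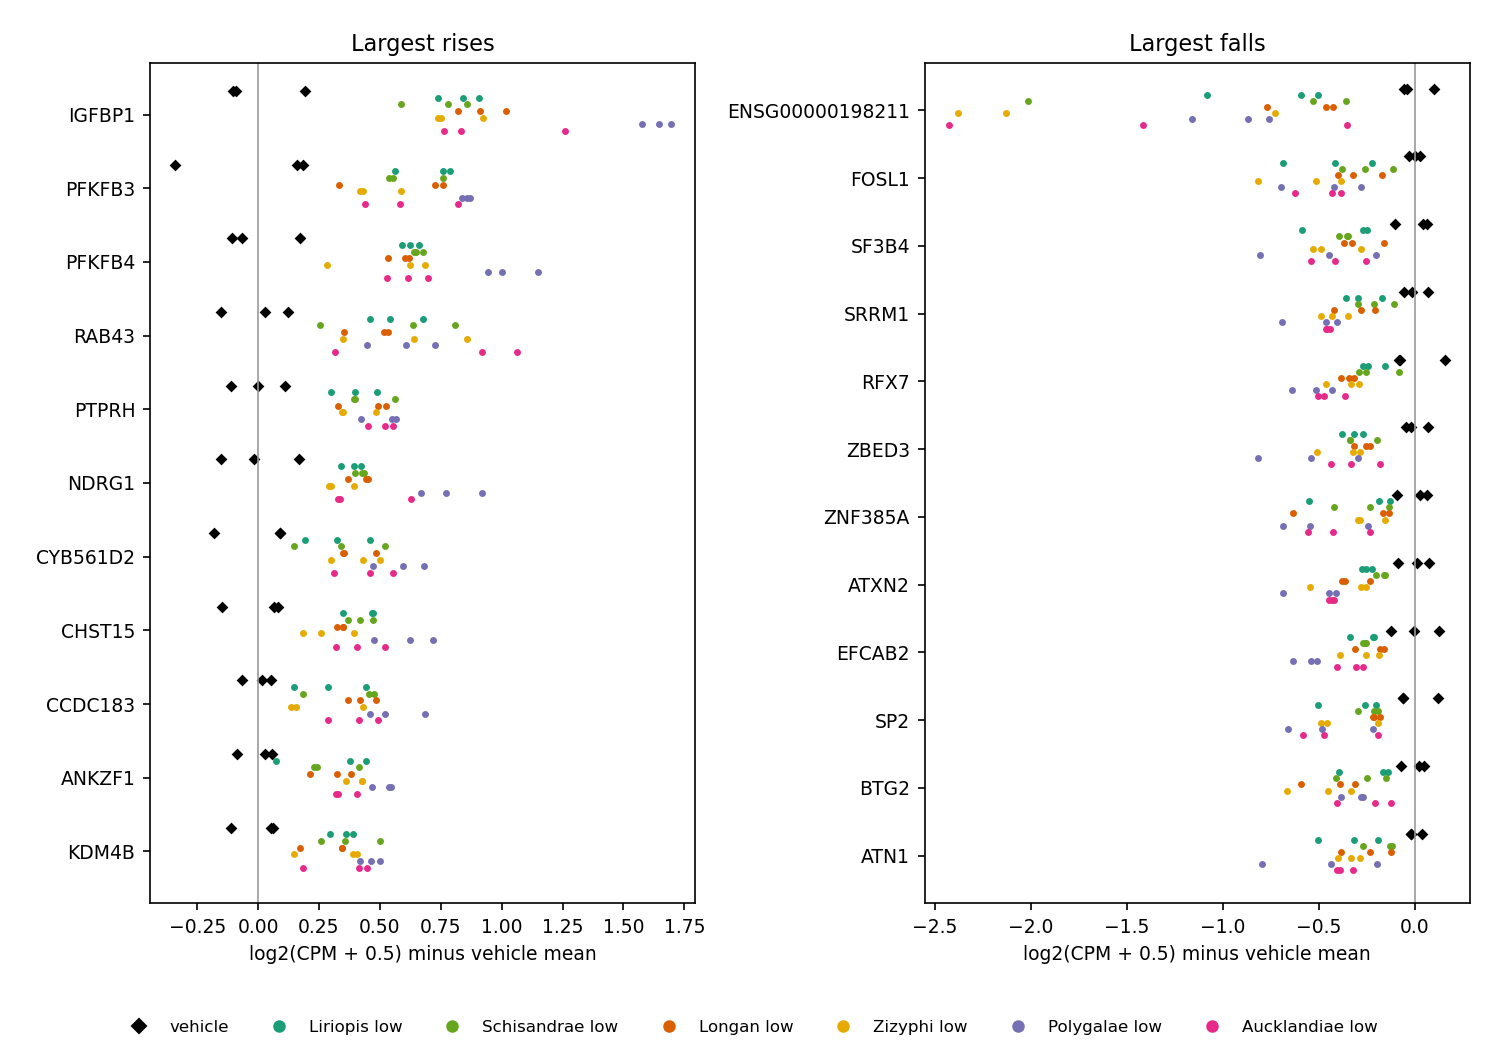
Log2(CPM + 0.5) of each library minus the vehicle mean, for the reported genes among the largest rises and largest falls that passed the test and in which all 18 low-dose libraries lay beyond all 3 vehicle libraries, which fixes the gap between the groups. Each point is 1 library, and the rises reach from 0.36 (KDM4B) to 1.00 (IGFBP1) in log2 fold change.

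Among 16 tested hypoxia targets, 10 were called higher and 0 lower, against 3.57% higher and 3.34% lower over all genes, with a median log2 fold change of 0.23 against 0.0019. The log2 fold change was above 0 in 13 of the 16 and ran from -0.21 to 1.08. At an unadjusted p below 0.05 there were 11 higher and 0 lower, and DESeq2 called 9 higher and 0 lower. The shares of 3.57% and 3.34% are at an adjusted p. For the common shift, the share of all genes at an unadjusted p below 0.05 is not given. Counts of list members at an unadjusted p, here and below, therefore have no background beside them. In 6 of the 16 all 18 low-dose libraries lay above the vehicle, against 0.908% of all tested genes. KDM3A, a histone demethylase that is itself switched on by hypoxia, was at 40.0, 41.4 and 46.6 CPM in the vehicle and from 47.7 to 58.2 CPM (median 52.1) at the low doses. No low-dose value reached the vehicle's range, and the log2 fold change was 0.30 ± 0.044 (edgeR adjusted p = 2.30e-05; without vehicle replicate 1, 0.26 at adjusted p = 0.0106). BNIP3, a receptor for the removal of mitochondria, was at 61.6, 58.4 and 58.7 CPM against 64.6 to 85.3 CPM (median 70.1). It too was apart in all libraries, at 0.27 ± 0.058 (edgeR adjusted p = 0.00268; without vehicle replicate 1, 0.30 at adjusted p = 0.0247). The other called members were NDRG1, the related receptor gene BNIP3L, the prolyl hydroxylase genes of collagen (P4HA1 and P4HA2) and of oxygen sensing (EGLN1 and EGLN3), PDK1 and CA9. PDK1, which holds back pyruvate dehydrogenase, rose by 0.30 ± 0.065 (adjusted p = 0.00303) and CA9, a carbonic anhydrase of the cell surface, by 1.08 ± 0.35 (adjusted p = 0.0482). CA9 was low, at 0.919, 0.753 and 2.01 CPM in the vehicle and from 1.39 to 5.68 CPM (median 2.18) at the low doses, and its groups overlapped. VEGFA, the angiogenic growth factor and a textbook target, was at 0.075 ± 0.037 (adjusted p = 0.232) and was not called, nor were DDIT4, ADM, ANKRD37, ERO1A and MXI1. PDK1, CA9, VEGFA and the list members given here and below by name alone were chosen after their values were seen. BNIP3, PDK1, CA9 and VEGFA overlap genes on the opposite strand. Without vehicle replicates 1, 2 and 3 in turn the list had 4, 4 and 6 called members, all higher, and it had 6 with the 21 libraries alone, 3 with the low doses as 1 group and 6 averaged without Polygalae. Over all 16517 tested genes, 65, 355 and 439 were higher without those vehicle libraries. With the 21 libraries alone, the low doses as 1 group and the average without Polygalae, 164, 52 and 322 were higher. These counts are the background for the other lists of higher genes below as well. The list's median was 0.21 (Liriopis), 0.20 (Schisandrae), 0.17 (Longan), 0.17 (Zizyphi), 0.32 (Polygalae) and 0.23 (Aucklandiae). Among the named members, calls ended without vehicle replicate 1 for CA9 (0.90) and without vehicle replicate 2 for PDK1 (0.25) and CA9 (0.84), and CA9 also lost its call without each of 9 low-dose libraries (1.00 to 1.10).

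Glycolysis genes were called higher for 5 of 16 and lower for 0 by edgeR and by DESeq2 (9 and 0 at an unadjusted p below 0.05), against 3.57% and 3.34% of all tested genes, with a median of 0.14. By extract, the median was 0.064 (Liriopis), 0.13 (Schisandrae), 0.13 (Longan), 0.043 (Zizyphi), 0.28 (Polygalae) and 0.17 (Aucklandiae). PGK1, phosphoglycerate kinase, was at 189, 201 and 217 CPM in the vehicle and from 226 to 295 CPM (median 242) at the low doses. All 18 libraries were above the vehicle, by 0.28 ± 0.044 on the log2 scale (edgeR adjusted p = 7.56e-05). ENO1, an enolase, was at 1156, 1278 and 1275 CPM against 1309 to 1719 CPM (median 1429). That is a rise of 0.24 ± 0.044 (edgeR adjusted p = 0.000746) with no overlap. SLC2A1, the glucose transporter GLUT1, was at 592, 636 and 651 CPM against 638 to 747 CPM (median 688). Its groups overlapped, and its log2 fold change was 0.15 ± 0.031 (edgeR adjusted p = 0.00204). PGAM1 and GPI were the other called members. Without vehicle replicate 1 only 1 of the 5 was called, while without replicate 2 or replicate 3 the count stayed at 5. There were 4 with the 21 libraries alone, 1 with the low doses as 1 group and 5 averaged without Polygalae. Calls ended without vehicle replicate 1 for ENO1 (0.19) and SLC2A1 (0.11). PGK1 overlaps ATP7A and SLC2A1 overlaps SLC2A1-DT, so both are uncertain.

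**Figure D2:**
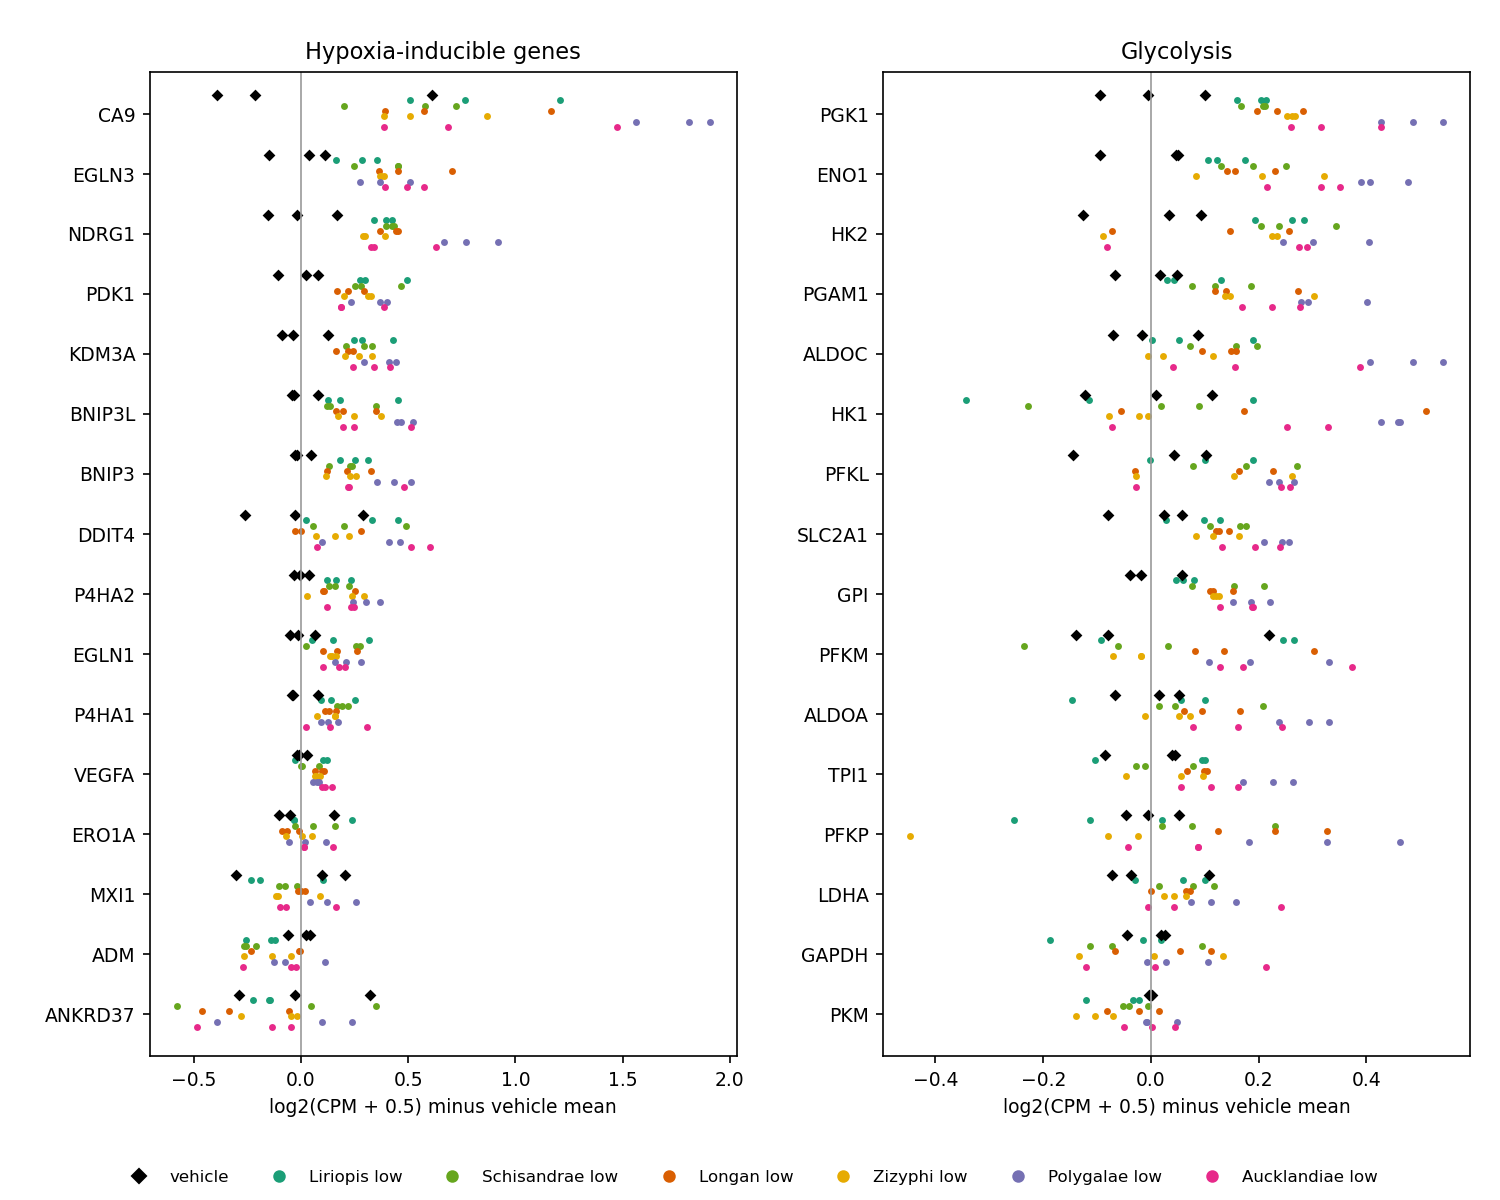
Log2(CPM + 0.5) of each library minus the vehicle mean, for every tested hypoxia target and glycolysis gene, with black diamonds for vehicle libraries and dots for low-dose libraries, coloured by extract. Hypoxia targets were called higher for 10 of 16 members and glycolysis genes for 5 of 16, and none was called lower.

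Promoter sequences (RefSeq, GRCh38.p14; 250 bases before to 50 after the start of a gene) were matched for 11221 of the 16517 tested genes and searched for ACGTG and GCGTG, the 2 forms of the core of the hypoxia response element, on both strands. Both were added, after the values had been seen, to 9 motifs fixed in the design. Of those 9, the palindrome CACGTG, the E-box of MYC and USF factors, contains the first. The form ACGTG stood in 26.5% of the 11221 promoters, in 4 of the 8 called hypoxia targets with a promoter, in 2 of 5 called glycolysis genes, in 2 of 8 of the largest rises and in 2 of 6 of the largest falls. The form GCGTG stood in 49.9% of the promoters and in 2, 3, 5 and 1 of the same sets, and either form in 62.4% and in 5, 4, 5 and 3 of them. Of the 9 fixed motifs, GGGCGG stood in 68.8% of the promoters, in 8 of 8 rises and in 4 of 6 falls. The motif CCAAT stood in 36.6%, in 3 of 8 and in 5 of 6, and CACGTG in 10.1%, in 1 of 8 and in 2 of 6. Each of the rest stood in at most 1 rise and 1 fall. A match is a description of the letters and says nothing of binding. The cases shown are printed 5′ to 3′ along the gene, with matches to ACGTG or GCGTG on either strand in capitals. They are a hypoxia target whose matches include a CACGTG (BNIP3, chr10:131981874-131982173, minus strand), a glycolysis gene with 3 matches to ACGTG and 1 to GCGTG (PGK1, chrX:78103998-78104297, plus strand), a large rise with 1 match to GCGTG (PFKFB4, chr3:48556754-48557053, minus strand) and a large rise with no match to either in this window (PTPRH, chr19:55209452-55209751, minus strand).
BNIP3: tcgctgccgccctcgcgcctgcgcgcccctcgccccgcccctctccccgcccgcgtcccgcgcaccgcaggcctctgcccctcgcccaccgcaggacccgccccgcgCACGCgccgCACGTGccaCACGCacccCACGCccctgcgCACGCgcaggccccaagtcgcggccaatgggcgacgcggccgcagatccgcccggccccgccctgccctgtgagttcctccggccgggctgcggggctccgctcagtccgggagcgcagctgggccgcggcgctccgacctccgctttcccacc
PGK1: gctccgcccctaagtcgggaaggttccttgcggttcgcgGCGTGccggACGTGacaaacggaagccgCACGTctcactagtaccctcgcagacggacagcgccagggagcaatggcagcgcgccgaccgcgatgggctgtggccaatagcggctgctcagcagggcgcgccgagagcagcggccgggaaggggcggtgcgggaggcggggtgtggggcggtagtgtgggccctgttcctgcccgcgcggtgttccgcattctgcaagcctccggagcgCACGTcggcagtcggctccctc
PFKFB4: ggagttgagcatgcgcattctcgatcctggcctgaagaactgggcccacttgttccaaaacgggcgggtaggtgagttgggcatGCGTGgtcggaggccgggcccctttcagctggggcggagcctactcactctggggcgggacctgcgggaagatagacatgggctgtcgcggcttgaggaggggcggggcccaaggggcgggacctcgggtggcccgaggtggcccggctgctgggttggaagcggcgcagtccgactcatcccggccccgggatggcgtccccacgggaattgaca
PTPRH: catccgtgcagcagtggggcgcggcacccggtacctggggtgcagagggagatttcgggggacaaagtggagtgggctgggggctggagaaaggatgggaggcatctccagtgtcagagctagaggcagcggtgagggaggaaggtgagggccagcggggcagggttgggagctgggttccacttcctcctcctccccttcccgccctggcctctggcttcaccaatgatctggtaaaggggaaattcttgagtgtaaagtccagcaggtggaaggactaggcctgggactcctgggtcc

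The falls chosen by the same rule included the transcription factor gene RFX7 and the RNA-binding protein gene ATXN2. RFX7 (ENSG00000181827, chromosome 15, 56087280 to 56243266), a transcription factor of the RFX family, was at 122, 104 and 104 CPM in the vehicle and from 70.1 to 103 CPM (median 86.7) at the low doses. All 18 low-dose libraries were below the vehicle, and the log2 fold change was -0.36 ± 0.043 (edgeR adjusted p = 1.55e-06; without vehicle replicate 1, -0.27 at adjusted p = 0.00259). ATXN2, an RNA-binding protein with an unstable glutamine tract, was at 84.3, 75.4 and 80.5 CPM against 49.4 to 71.8 CPM (median 63.9). It fell by 0.35 ± 0.05 on the log2 scale (edgeR adjusted p = 1.81e-05) and was also called without vehicle replicate 1, at -0.31 (adjusted p = 0.0063), and the gene overlaps SH2B3 and ATXN2-AS on the other strand. SRRM1, a coactivator of splicing, was at 199, 188 and 182 CPM against 117 to 176 CPM (median 146). It lay below the vehicle in all 18 libraries, at -0.36 ± 0.056 (edgeR adjusted p = 6.74e-05; without vehicle replicate 1, -0.33 at adjusted p = 0.00992). ZBED3, an Axin-binding protein of Wnt signalling, was at -0.35 ± 0.064 (adjusted p = 0.000476), and -0.32 (adjusted p = 0.0279) without vehicle replicate 1, and overlaps ZBED3-AS1. RFX7 shares its place with an unnamed gene on its own strand.

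FOSL1, a subunit of the AP-1 transcription factor, was at 18.1, 17.7 and 18.5 CPM in the vehicle and from 10.1 to 16.7 CPM (median 13.7) at the low doses. SF3B4, a spliceosome subunit, was at 118, 116 and 105 CPM against 64.1 to 101 CPM (median 87.5). Both were lower in every low-dose library, FOSL1 at a log2 fold change of -0.43 ± 0.10 (adjusted p = 0.005) and SF3B4 at -0.39 ± 0.10 (adjusted p = 0.0121), with edgeR's adjusted p. SP2, a zinc finger factor of GC-rich promoters, was at -0.34 ± 0.079 (adjusted p = 0.00563), the corepressor gene ATN1 at -0.32 ± 0.074 (adjusted p = 0.00569) and the antiproliferative gene BTG2 at -0.33 ± 0.088 (adjusted p = 0.0143). EFCAB2 was at -0.34 ± 0.069 (adjusted p = 0.00171) and ZNF385A, a zinc finger gene, at -0.35 ± 0.11 (adjusted p = 0.046). Of these 12 falls, the lowest log2 fold change was that of the gene listed only by its identifier ENSG00000198211, at -1.03 ± 0.28. Its mean reached 5 CPM only in the vehicle, so its value and its test outcomes are a description only, and it overlaps MC1R and TUBB3 and is uncertain. EFCAB2 and SP2 overlap genes on the opposite strand. Of the 12 largest falls, 4 (RFX7, ATXN2, SRRM1 and ZBED3) passed the test without vehicle replicate 1, 8 without replicate 2 and 9 without replicate 3. Falls lost the test without vehicle replicate 1 for FOSL1 (-0.43), SF3B4 (-0.36), SP2 (-0.27), ATN1 (-0.33), BTG2 (-0.37), EFCAB2 (-0.27), ZNF385A (-0.40) and ENSG00000198211 (-1.06), without vehicle replicate 2 for SF3B4 (-0.37), BTG2 (-0.31), ZNF385A (-0.33) and ENSG00000198211 (-1.05) and without vehicle replicate 3 for BTG2 (-0.32), ZNF385A (-0.31) and ENSG00000198211 (-0.98), and ZNF385A also lost it without each of 9 low-dose libraries (-0.34 to -0.32).

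Mitochondrially encoded mRNAs were lower in most low-dose libraries. Their share of all counts was 16.1%, 13.0% and 13.1% in the vehicle libraries and from 7.06% to 15.2% at the low doses (median 11.03%). In 16 of 18 low-dose libraries the share was below the whole vehicle range. The means were 14.1% ± 1.77 (SD, n = 3) and 10.97% ± 2.04 (n = 18), a difference of -3.13 percentage points (2-sided exact permutation test over 1330 splits, p = 0.0218, and 0.0575 after Benjamini-Hochberg adjustment over 3 library measures). The test takes libraries of different extracts as exchangeable and so ignores that the 18 low-dose libraries form groups by extract and code set. Without vehicle replicate 1 the difference was -2.11 points (exact permutation p = 0.179). By extract the share was 10.9% ± 0.887 with Liriopis, 11.98% ± 0.459 with Schisandrae, 11.6% ± 0.958 with Longan, 11.5% ± 3.22 with Zizyphi, 9.11% ± 2.08 with Polygalae and 10.7% ± 3.30 with Aucklandiae (SD, n = 3). The Polygalae libraries (7.06% to 11.2%) all lay below the Schisandrae libraries (11.5% to 12.4%), a difference that was not tested, and the ranges of all other pairs of extracts overlapped. In the rest of the series it was 11.3% at the medium doses, 11.1% at the high doses and 10.8% with wortmannin, as means of 18, 18 and 3 libraries.

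All 13 mitochondrially encoded genes tested had a negative log2 fold change, with a median of -0.42, and 5 of them passed the test, against 3.34% of all genes lower. MT-ATP8, a small subunit of ATP synthase, was at 2503, 2467 and 1643 CPM in the vehicle and from 644 to 1869 CPM (median 1386) at the low doses, with 16 of the 18 below all vehicle libraries. Its log2 fold change was -0.72 ± 0.17 (edgeR adjusted p = 0.00813). MT-ND1 and MT-ND5, subunits of complex I, were at -0.59 ± 0.18 (adjusted p = 0.0364) and -0.41 ± 0.12 (adjusted p = 0.0319), and MT-ND6 and MT-CO1 were also called. None of the 13 was called without vehicle replicate 1 (edgeR; median -0.31), and 2 were without replicate 2 or without replicate 3. The list had 1 with the 21 libraries alone, 1 with the low doses as 1 group and 1 averaged without Polygalae. Over all 16517 tested genes, 79, 317 and 388 were lower without vehicle replicates 1, 2 and 3. With the 21 libraries alone, the low doses as 1 group and the average without Polygalae, 187, 70 and 314 were lower. These counts are the background for the lists of lower genes below as well. Single genes lost the call without vehicle replicate 1 for MT-ATP8 (-0.61), MT-ND1 (-0.44) and MT-ND5 (-0.28), without vehicle replicate 2 for MT-ATP8 (-0.63) and without vehicle replicate 3 for MT-ND1 (-0.62) and MT-ND5 (-0.45). With Polygalae alone, all 13 were called lower than the vehicle, against 7.01% of all tested genes lower in that comparison. These genes are transcribed together in long precursors and are not independent of each other, and MT-ATP8 overlaps MT-ATP6. Fewer mitochondrial transcripts and more nuclear ones cannot be told apart in shares of counts, and with the mitochondrial genes left out before scaling the common shift had 569 higher and 597 lower genes. Structured RNA (ribosomal, small nuclear and the like) took 3.58% ± 0.229 of counts in the vehicle and 3.06% ± 0.376 at the low doses (exact permutation p = 0.0383, adjusted 0.0575). Nearly all of it was mitochondrial ribosomal RNA, at 3.835% of counts out of 3.840% in vehicle replicate 1. In low-dose Polygalae replicate 2 it was 2.488% out of 2.494%. The share is thus not a measure apart from mitochondrial transcripts, and its part in the results was not tested.

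**Figure D3:**
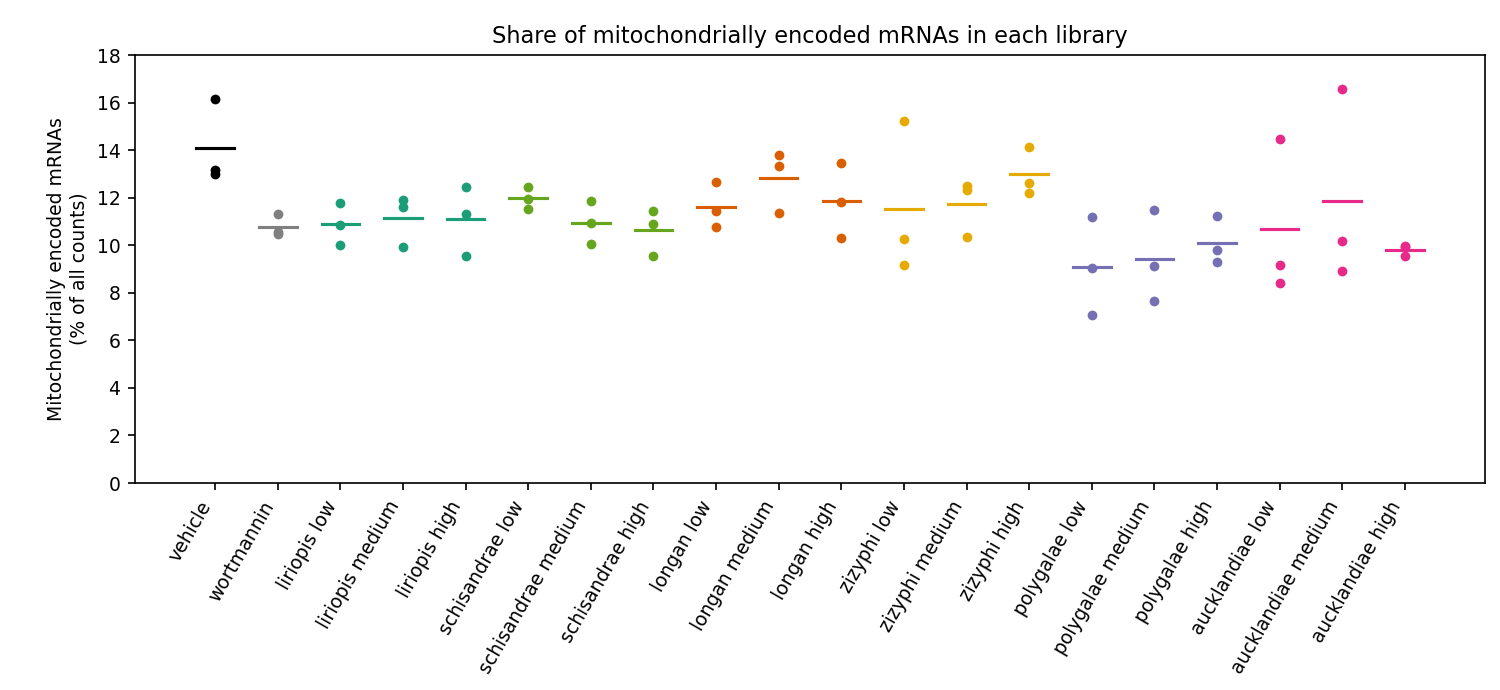
Share of each library's counts in the 13 mitochondrially encoded mRNAs, in percent from 0, by group, with 1 point per library and a bar at the mean. The vehicle libraries lie at 16.1%, 13.0% and 13.1%, and 16 of the 18 low-dose libraries lie below all of them.

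Respiratory chain subunits coded in the nucleus went the other way where they passed. Of 32 tested, 5 were higher and 0 were lower by edgeR and by DESeq2 (10 and 0 at an unadjusted p below 0.05), against 3.57% higher and 3.34% lower over all genes, with a median of 0.11. The median differed in sign between extracts, at 0.07 (Liriopis), -0.043 (Schisandrae), 0.12 (Longan), 0.13 (Zizyphi), 0.23 (Polygalae) and 0.15 (Aucklandiae). ATP5F1A, the alpha subunit of ATP synthase, was at 359, 350.4 and 349 CPM in the vehicle and from 361 to 432 CPM (median 390.3) at the low doses. It lay above the vehicle in every library, by 0.15 ± 0.031 on the log2 scale (edgeR adjusted p = 0.00224). The beta subunit gene ATP5F1B was at 0.14 ± 0.033 (adjusted p = 0.00632) and NDUFA9, of complex I, at 0.16 ± 0.041 (adjusted p = 0.0112). ATP5F1A overlaps HAUS1 and NDUFA9 an unnamed gene. Without vehicle replicates 1, 2 and 3 the list had 1, 4 and 4 called members, and there were 1 with the 21 libraries alone, 0 with the low doses as 1 group and 4 averaged without Polygalae. Calls ended without vehicle replicate 1 for ATP5F1B (0.094) and NDUFA9 (0.14) and without vehicle replicate 2 for NDUFA9 (0.15).

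Genes of the NRF2 response were called higher for 5 of 19 and lower for 0 by edgeR and by DESeq2 (7 and 0 at an unadjusted p below 0.05; median 0.075), against 3.57% and 3.34% over all genes. Polygalae and Aucklandiae had 9 members called higher each, Zizyphi 4, Longan 1 and Liriopis and Schisandrae 0, against the same vehicle libraries. Over all tested genes the share called higher was 8.63% (Polygalae), 2.19% (Aucklandiae), 1.14% (Zizyphi), 0.375% (Longan), 0.0182% (Liriopis) and 0.0545% (Schisandrae). The list's medians were 0.0021 (Liriopis), -0.036 (Schisandrae), 0.041 (Longan), 0.036 (Zizyphi), 0.13 (Polygalae) and 0.17 (Aucklandiae). AKR1C1, an aldo-keto reductase with close copies among which reads may be split, was at 427, 416 and 444 CPM in the vehicle and from 434 to 712 CPM (median 534) at the low doses, with 17 of the 18 above all vehicle libraries. Its log2 fold change was 0.34 ± 0.047 (edgeR adjusted p = 1.01e-05). AKR1B10, a reductase of aldehydes and retinal, was at 0.31 ± 0.043 (adjusted p = 1.05e-05) and the quinone reductase gene NQO1 at 0.18 ± 0.034 (adjusted p = 0.00114). All 3 also differed among the low doses, at adjusted p-values of 2.35e-09, 1.27e-13 and 1.44e-06 by edgeR. Without vehicle replicates 1, 2 and 3 the list had 3, 4 and 5 called members, and it had 5 with the 21 libraries alone, 0 with the low doses as 1 group and 6 averaged without Polygalae.

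Lower genes included regulators of chromatin. Of 19 tested members of a list of chromatin regulators with long transcripts, 6 were lower and 0 were higher by edgeR (8 and 0 by DESeq2, 12 and 0 at an unadjusted p below 0.05; median -0.15), against 3.34% lower and 3.57% higher over all genes. By extract, the list's median was -0.037 (Liriopis), -0.041 (Schisandrae), -0.17 (Longan), -0.16 (Zizyphi), -0.25 (Polygalae) and -0.21 (Aucklandiae). ARID1A, a subunit of the SWI/SNF remodelling complex, was at 219, 210.3 and 223 CPM in the vehicle and from 151 to 216 CPM (median 189) at the low doses. The groups overlapped, and a gene on the opposite strand overlaps it, so that shared reads could belong to either. Its log2 fold change was -0.20 ± 0.048 (edgeR adjusted p = 0.00794), and that of CREBBP, a histone acetyltransferase, was -0.23 ± 0.06 (adjusted p = 0.0144). Without vehicle replicates 1, 2 and 3 the list had 1, 4 and 1 called members, and there were 1 with the 21 libraries alone, 1 with the low doses as 1 group and 2 averaged without Polygalae. Calls ended without vehicle replicate 1 for ARID1A (-0.19) and CREBBP (-0.22), without vehicle replicate 2 for CREBBP (-0.23) and without vehicle replicate 3 for ARID1A (-0.18) and CREBBP (-0.23). Over all genes, those called lower had a median transcript length of 4491 bases and a median GC content of 47.7%, against 3118 bases and 48.9% in all tested genes and 3076 bases and 52.8% in those called higher. The part of length and GC content in the result was not tested by these medians, and with a library's GC slope as a covariate 799 genes were higher and 754 lower.

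Some genes of growth were lower. Of 20 ribosome biogenesis genes 4 were lower and 1 was higher, against 3.34% and 3.57% over all genes (median -0.043), among them NCL, nucleolin, at -0.20 ± 0.048 (adjusted p = 0.00837), NOP58 at -0.25 ± 0.062 (adjusted p = 0.0102) and PES1 at -0.14 ± 0.037 (adjusted p = 0.0106). Of 18 genes of the G2 and M phases 3 were lower and 0 higher (median -0.058), the mitotic kinase gene PLK1 at -0.17 ± 0.042 (adjusted p = 0.00964), the proliferation marker MKI67 at -0.22 ± 0.06 (adjusted p = 0.0201) and the kinesin gene KIF23 at -0.15 ± 0.045 (adjusted p = 0.0389). Without vehicle replicate 1 these lists had 1 and 0 called members, and without replicate 2 they had 2 each. Lower members numbered 3, 0 and 4 for ribosome biogenesis and 1, 0 and 1 for the G2 and M phases with the 21 libraries alone, with the low doses as 1 group and averaged without Polygalae. Of the 6 named genes, calls ended without vehicle replicate 1 for NCL (-0.18), NOP58 (-0.12), PLK1 (-0.17), MKI67 (-0.18) and KIF23 (-0.12) and without vehicle replicate 2 for PES1 (-0.12) and KIF23 (-0.12), and that of KIF23 also ended without each of 4 low-dose libraries (-0.15 to -0.14). Cholesterol synthesis and uptake genes were called for 0 of 24 by edgeR (5 higher and 1 lower at an unadjusted p below 0.05, 2 higher by DESeq2; median 0.053). With Polygalae alone 16 of them were called higher, against 8.63% of all tested genes higher in that comparison. Of 18 FOXO targets, which rise when insulin signalling is low, IGFBP1 and PCK1, which codes for a rate-limiting enzyme of glucose synthesis, were called (0.43 ± 0.13, adjusted p = 0.0298 for PCK1). The call of PCK1 ended without any 1 of the 3 vehicle libraries (0.39, 0.51 and 0.41 without replicates 1, 2 and 3). Of 17 immediate early genes FOSL1 alone was called. All adjusted p-values are edgeR's. Over the 37 lists with at least 5 tested members, the medians ran from -0.42 (mitochondrially encoded mRNAs) to 0.23 (hypoxia targets).

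The extracts contributed unequally. Against the same 3 vehicle libraries, Liriopis had 3 higher (0.0182%) and 2 lower (0.0121%) genes, 0.0303% of those tested in all. Schisandrae had 9 higher (0.0545%) and 3 lower (0.0182%), 0.0727% in all, and Longan 62 (0.375%) and 34 (0.206%), 0.581% in all. Zizyphi had 189 (1.14%) and 157 (0.951%), 2.09% in all, and Aucklandiae 362 (2.19%) and 373 (2.26%), 4.45% in all. Polygalae had the most, 1426 (8.63%) and 1158 (7.01%), 15.6% in all. Since these comparisons share their controls, their overlap was not counted. At an unadjusted p below 0.05 there were 1566 genes with Liriopis, 1612 with Schisandrae, 2284 with Longan, 2577 with Zizyphi, 2996 with Aucklandiae and 4732 with Polygalae. Single libraries moved these counts. Without vehicle replicate 1 the higher genes numbered 1 (Liriopis), 1 (Schisandrae), 0 (Longan), 9 (Zizyphi), 60 (Aucklandiae) and 672 (Polygalae), and without vehicle replicate 2 they numbered 0 (Schisandrae), 40 (Longan), 92 (Zizyphi) and 241 (Aucklandiae). Among an extract's own libraries, leaving out replicate 1, 2 or 3 gave 12, 8 and 18 higher genes for Longan and 3, 3 and 0 for Schisandrae. Zizyphi had 15 without its replicate 1 and 107 without its replicate 3, Aucklandiae 186 and 113 without its replicates 2 and 3, and Polygalae 655 without its replicate 2. The few genes of Liriopis and Schisandrae also came and went with libraries of other groups. Averaged without Polygalae, the common shift had 322 higher and 314 lower genes.

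**Figure D4:**
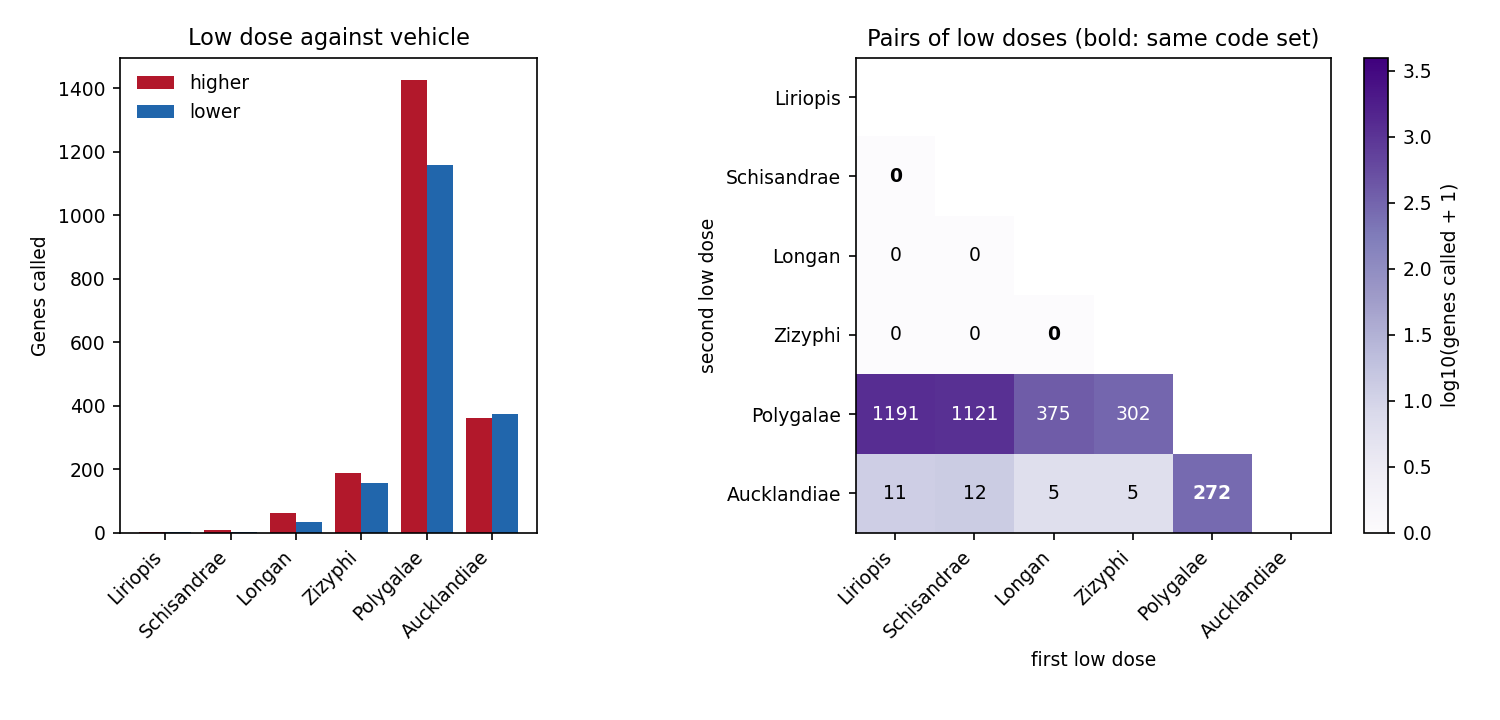
Left, number of genes called higher and lower than the vehicle by edgeR at an adjusted p below 0.05, for each low dose, drawn from 0; right, number called between each pair of low doses, shaded by log10 of the number plus 1. Polygalae has the most, with 1426 higher and 1158 lower genes, and Liriopis the fewest, with 3 and 2.

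Differences among the 6 low doses, which do not involve the vehicle, were called for 566 genes (3.43%), 198 without replicate 2 of Polygalae. Of the 1141 genes of the common shift, 173 (15.2%) also differed among the low doses, including IGFBP1, NDRG1, RFX7, ATXN2 and SRRM1. Between pairs of extracts, the 5 pairs with Polygalae had 272 to 1191 called genes and the 10 pairs without it 0 to 12. The pairs within a code set had 0 (Liriopis and Schisandrae; 600 genes at an unadjusted p below 0.05), 0 (Longan and Zizyphi; 367) and 272 (Polygalae and Aucklandiae) by edgeR, with a median of 0 by DESeq2 as well, and pairs from different sets had a median of 8 (18.5 by DESeq2). The other pairs at 0 were Liriopis with Longan, Liriopis with Zizyphi, Schisandrae with Longan and Schisandrae with Zizyphi, with 1382, 873, 1080 and 917 genes at an unadjusted p below 0.05.

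The genes that differed most among the low doses were mostly highest with Polygalae. SQSTM1, an autophagy receptor, was at 197 ± 8.63 CPM in the vehicle and 339 ± 11.1 CPM with Polygalae (SD, n = 3), against 192 to 213 CPM in the means of the other extracts. UAP1L1, related to the enzyme that makes UDP-N-acetylglucosamine, was at 28.2 ± 2.3 CPM and 55.1 ± 0.735 CPM, with the other means at 27.8 to 29.6 CPM. AKR1B10 was at 38.1 ± 3.01 CPM in the vehicle, 65.1 ± 2.16 CPM with Aucklandiae and 51.4 ± 2.92 CPM with Polygalae. In this gene Aucklandiae was highest. NEU1, a lysosomal sialidase, reached 462 ± 8.6 CPM with Polygalae against 319 ± 15.4 CPM in the vehicle, and ACSS2, an acetyl-CoA synthetase, 179.6 ± 1.51 against 129 ± 4.99 CPM. ACSS2, SQSTM1, ENO2 and TRIM50 overlap other genes. SULT1C2, a sulfotransferase, was at 12 ± 0.454 against 7.25 ± 0.185 CPM, TRIM50, a ubiquitin ligase, at 29.8 ± 1.8 against 19 ± 2.01 CPM and ENO2, an enolase, at 61.9 ± 1.26 against 39.4 ± 1.27 CPM. The adjusted p-values of these 8 genes among the low doses ran from 5.16e-22 (SQSTM1) to 5.63e-11 (ENO2) by edgeR. Among the 12 largest rises of the common shift, PTPRH was the most even, at 11.8 to 12.9 CPM over the 6 extract means (adjusted p among low doses = 0.892).

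The mean of the 6 high doses differed from that of the 6 low doses in 2025 genes (12.3%), 992 higher (6.01%) and 1033 lower (6.25%), a comparison within code sets. Of the 12 largest rises, 7 were higher still at the high doses and none was lower. IGFBP1 was at 43.4 CPM at the medium doses, 90.7 CPM at the high doses and 102 CPM with wortmannin, with a difference of 0.66 (adjusted p = 6.18e-10). IGFBP1 with wortmannin was thus above the vehicle. PFKFB4 was at 22.6 CPM at the medium doses, 25.4 CPM at the high doses and 19 CPM with wortmannin, and its difference between high and low doses was 0.067 (adjusted p = 0.49), which did not pass. Of the 12 largest falls, 1 was higher at the high doses, FOSL1 at a log2 difference of 0.30 (adjusted p = 4.07e-05), and 1 was lower, RFX7 at -0.071 (adjusted p = 0.0394). RFX7 stood at 86.3 CPM at the medium doses, 82.1 CPM at the high doses and 84.4 CPM with wortmannin, against a mean of 86.1 CPM over the low-dose libraries. For PFKFB4 and RFX7 the means at the medium and high doses lay within the range of the low-dose libraries. Hypoxia targets were called higher at the high than at the low doses for 7 of 16, glycolysis genes for 8 of 16 and NRF2 targets for 16 of 19, and genes of the G2 and M phases lower for 17 of 18. All adjusted p-values are edgeR's.

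**Figure D5:**
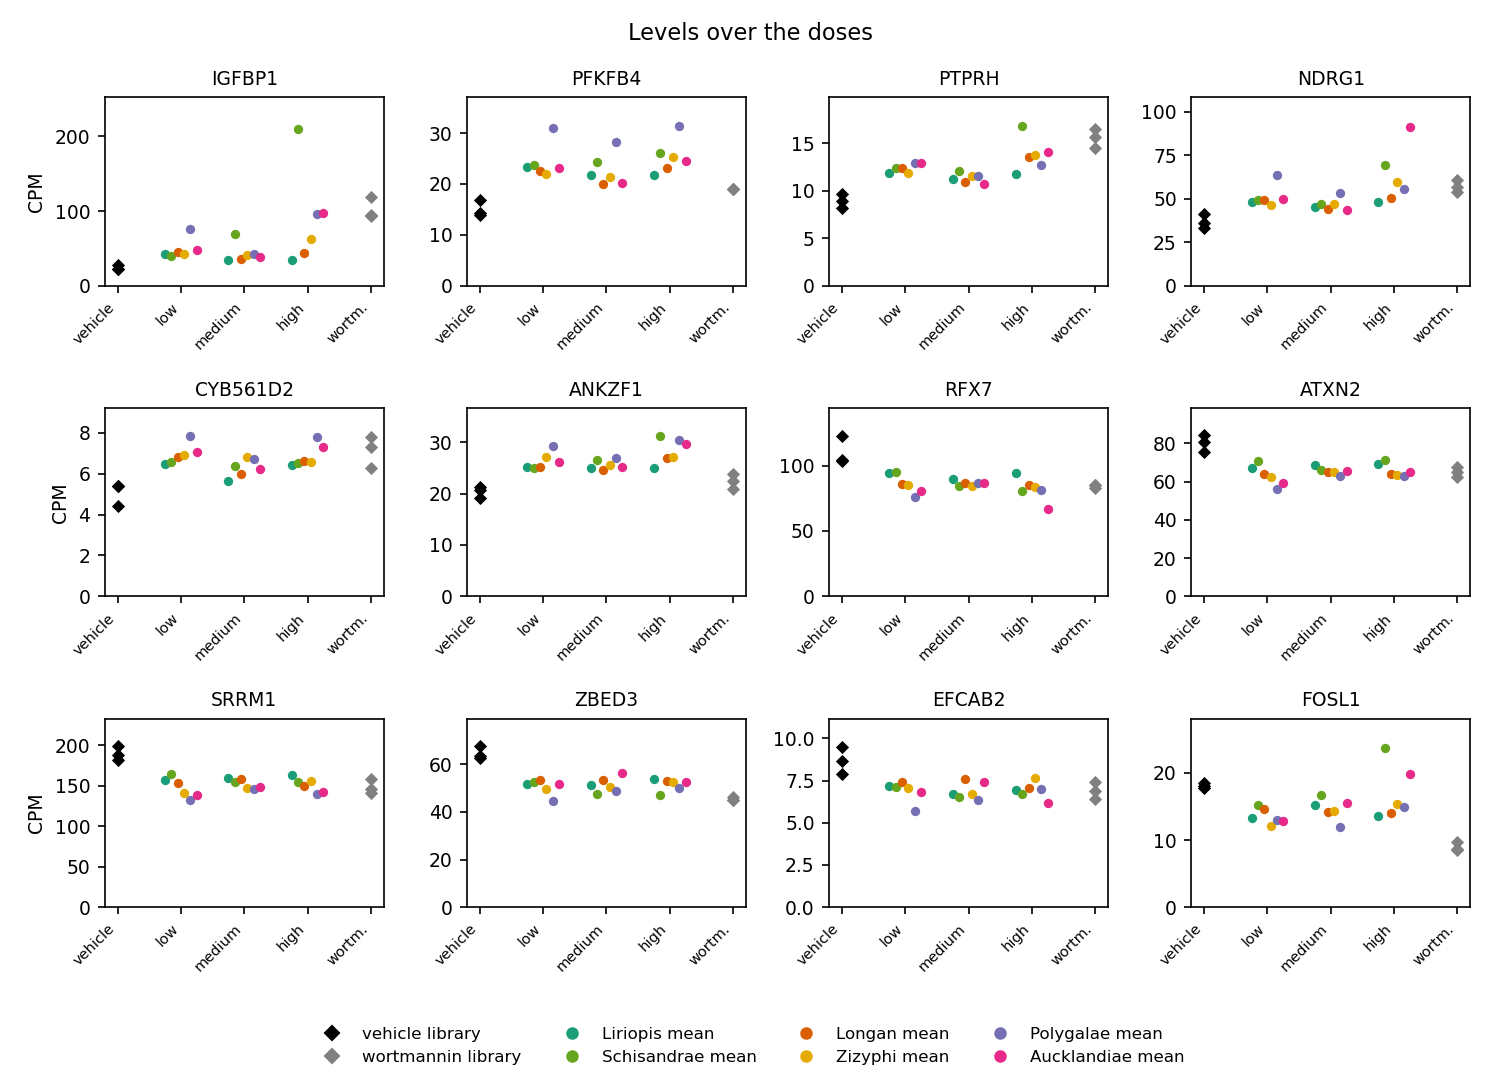
Level in CPM, from 0, of the 6 rises and the 6 falls of smallest p among the genes plotted by library, by group: vehicle, low, medium and high doses, and wortmannin (wortm.). Diamonds are single libraries, dots are extract means, and IGFBP1 goes from a vehicle range of 22.1 to 27.3 CPM to 36 to 78.2 CPM over the low-dose libraries.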

How the data were processed

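Libraries for mRNA sequencing were made from total RNA of HepG2 cells with a directional kit and read as 100 bp pairs, from RNA with an integrity number above 7, per the labels' protocols. The authors deposited expected counts, estimated numbers of reads per gene that need not be whole (10.3% of values were not), for 60675 genes in 1 table. RSEM 1.3.3, STAR 2.7.3a, Trim Galore 0.6.5 and FastQC 0.11.9, and hg38 and GRCh38 as builds, stand in the submitters' processing notes without their roles. The counting annotation was not given in the sources used here, nor was its strand setting, so overlapping and antisense genes are called uncertain. Symbols and coordinates come from GENCODE 29 on GRCh38 (57055 genes matched).

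Expected counts were rounded to whole numbers. edgeR's filterByExpr by group left 16517 genes, and the others held 0.0534% of counts. Libraries were scaled with TMM (factors 0.92 to 1.08), and all 60 libraries entered 1 edgeR quasi-likelihood fit with 20 group means (edgeR 4.0.16 and limma 3.58.1 in R 4.3.3). Contrasts were 2-sided, with Benjamini-Hochberg adjustment over the 16517 genes and a threshold of 0.05. CPM were computed after scaling, log2 fold changes carry their standard error, and a library's GC slope was taken from log2 of CPM with 0.5 added. No 2 libraries of a group were alike enough to be 1 library deposited more than once (lowest chi-square per degree of freedom 2.58, over 60 pairs).

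The members, gene lists and tests were chosen with earlier results of these data known. Named genes are the 12 largest rises and 12 largest falls among protein-coding genes that passed the test, reached 5 CPM and had all 18 low-dose libraries beyond all 3 vehicle libraries, the 3 members of smallest p of each of 37 lists (of 41) with at least 5 tested members, and the 8 genes of smallest p among the low doses. Of these and 3 genes added later, 136 in all, 82 were called, and a few are not reported here. On simulated counts of 16517 genes for the common shift, edgeR made 11 false calls and found 70% of 50 genes changed 1.25-fold, 94% of those changed 1.5-fold, 98% of those changed 2-fold and 100% of those changed 4-fold. The counts were drawn independently, and only genes with a mean of at least 50 counts were changed. No library was given a deviation over many genes, as vehicle replicate 1 had. The simulation therefore cannot show how many calls of the common shift are false.

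Alternatives were RLE scaling, no filter, a filter of 1 CPM in 30 libraries, DESeq2 1.42.0, a replicate block, the 21 libraries alone, low doses as 1 group, an average without each extract, a GC slope covariate, no mitochondrial genes and leaving out each library. Values of the lists without vehicle libraries were added after seeing the data.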

Additional observations from a re-analysis of the deposited data

Results flagged for a closer look

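Named genes whose low-dose levels differed between extracts were found by edgeR's test of any difference among the 6 low doses (Benjamini-Hochberg adjusted over 16517 genes). Given here are 35 such genes, and Polygalae gave the highest extract mean in 23 of them and the lowest in 8. The smallest adjusted p was that of the autophagy receptor gene SQSTM1 (5.16e-22), and UAP1L1 (1.27e-13), related to an enzyme of nucleotide sugars, was also among them. The aldo-keto reductase genes AKR1B10 (1.27e-13) and AKR1C1 (2.35e-09) and the quinone reductase gene NQO1 (1.44e-06) belong to the NRF2 response. Lysosomal genes were NEU1 (5.18e-13) and the protease gene CTSD (0.000177). Genes of lipid and sterol metabolism were ACSS2 (9.82e-13), ACAT2 (6.06e-05) and the lipid droplet gene PLIN2 (3.97e-08). Sulfotransferases were SULT1C2 (2.84e-12) and SULT2A1 (1.31e-09), and TRIM50 (4.07e-11) codes for a ubiquitin ligase.

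Glycolysis and hypoxia genes with such differences were ENO2 (5.63e-11), ENO1 (0.00394), PGK1 (0.00173), NDRG1 (0.0166) and CA9 (0.0404). Secreted or signalling genes were IGFBP1 (0.00137), CCN1 (0.00226), the interleukin-6 receptor gene IL6R (2.69e-06) and RELB (0.0108), a subunit of NF-kB. Stress genes were TRIB3 (0.000939), the cystine transporter gene SLC7A11 (0.00973) and HYOU1 (0.00257), a chaperone of the endoplasmic reticulum. Among regulators of transcription, chromatin and RNA were RFX7 (0.000528), ATXN2 (0.00554), SRRM1 (0.0313), the splicing kinase gene CLK1 (0.0404), ARID1A (0.0344), CREBBP (0.0446), the liver factor CEBPA (0.00813) and the nuclear noncoding RNA NEAT1 (0.0352). The proliferation marker MKI67 (0.00846) and ABCC2 (0.0399), an exporter of conjugates into bile, complete the set. The adjusted p-value stands in brackets after each gene.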

How the results depend on the processing

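The size of the common shift rests on the vehicle's 3 libraries. Leaving out each library in turn gave 65 to 752 higher and 79 to 683 lower genes, the lowest without vehicle replicate 1 (355 and 317 without vehicle replicate 2). Without the 4 libraries of lowest GC slope (vehicle 1, low-dose Liriopis 1, low-dose Schisandrae 2 and medium-dose Aucklandiae 3) there were 66 and 83, with the 21 libraries alone 164 and 187, with the low doses as 1 group 52 and 70, and averaged without Polygalae 322 and 314. The counts were within 1.5 times of 589 and 552 with RLE scaling (568 and 599), no filter (653 and 619), the stricter filter (641 and 638), DESeq2 (630 and 650), the GC covariate (799 and 754) and no mitochondrial genes (569 and 597). The cause of these moves was not tested. Of the 82 called named genes, 27 were called without vehicle replicate 1, 23 with the low doses as 1 group, 47 with the 21 libraries alone and 58 without Polygalae, and none of the 82 changed sign. The settings share most or all of the vehicle and low-dose libraries, so a kept sign was largely fixed beforehand.

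Among genes named but not called, signs turned for AHRR (-0.30 to 0.071 over single libraries left out), CDH5 (-0.56 to 0.34, and 0.29 without the 4 libraries), TRIM50 (-0.0043 to 0.15, and -0.036 averaged without Polygalae) and SULT1C2 (-0.10 without Polygalae). The share of mitochondrial mRNAs differed by -3.67 to -2.11 points over single libraries left out.

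Deviations of equal replicate number had r = 0.30, -0.03 and 0.34 between the vehicle and the mean of the low doses. Replicates 1 and 3 had their highest r with the vehicle library of equal number, and replicate 2 had it with vehicle replicate 1 (0.14). For equal numbers r was 0.55, 0.33 and 0.24 for Liriopis and 0.28, 0.04 and 0.29 for Aucklandiae. For replicate 1 it was -0.15 (Schisandrae), -0.08 (Longan) and -0.44 (Zizyphi). Replicate 3 of Liriopis had a higher r with vehicle replicate 2 (0.33) than with vehicle replicate 3. These values do not settle whether equal numbers mark pairs of libraries. With the replicate block there were 627 and 588 genes, 7 and 5 for Liriopis and 18 and 7 for Schisandrae.

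Counts per extract, higher then lower, moved most. DESeq2 gave 20 and 20 (Liriopis), 24 and 13 (Schisandrae), 113 and 116 (Longan) and 278 lower (Zizyphi), with a median of 18.5 for pairs across sets. The GC covariate gave 33 and 24 (Liriopis), 74 and 26 (Schisandrae), 122 and 85 (Longan), 396 and 382 (Zizyphi) and 668 and 601 (Aucklandiae). No filter gave 109 and 151, 149 and 205, 293 and 161 and 411 and 286 in the same order up to Zizyphi, with 1449 genes among the low doses and medians of 105 and 264 for pairs within and across sets. The 21 libraries alone gave 0 lower (Liriopis), 2 and 0 (Schisandrae), 6 and 0 (Longan), 13 and 12 (Zizyphi), 870 and 676 (Polygalae) and 57 and 42 (Aucklandiae), 112 among the low doses and 3 across sets. Without the 4 libraries there were 0 and 0 for Liriopis, Schisandrae and Longan, 18 and 34 (Zizyphi), 740 and 603 (Polygalae) and 106 and 117 (Aucklandiae). RLE scaling and no mitochondrial genes each gave 5 and 1 (Schisandrae), and the stricter filter 6 higher (Liriopis) and 5 lower (Schisandrae). Single libraries left out gave 1 to 7 and 0 to 5 (Liriopis), 0 to 13 and 0 to 5 (Schisandrae), 0 to 104 and 0 to 70 (Longan), 9 to 233 and 11 to 210 (Zizyphi), 655 to 1520 and 536 to 1273 (Polygalae), 60 to 413 and 61 to 422 (Aucklandiae), 891 to 1021 and 931 to 1092 (high against low doses), 198 to 664 (among low doses) and 5 to 10 (pairs across sets).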
